A study of Homo sapiens with 6 samples.

Results

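The cell cycle and proliferation genes examined here were 42 named genes out of 50868 genes with values, each chosen by its symbol as a commonly used marker of DNA replication or mitosis. 16 of them act mainly at the G1/S transition and in S phase, and 26 act mainly in G2 and mitosis (G2/M). All 42 were measured in 6 RNA-seq libraries from UM-UC-3 and 5637 cells, established lines of human bladder cancer. Cells of each line had been infected with lentivirus, selected with puromycin to give stable lines, and carried a negative control hairpin (sh-NC) or one of the short hairpin RNAs sh-LNMAT1#1 and sh-LNMAT1#2 against the long noncoding RNA LNMAT1, listed as LINC01296. Each line and hairpin was represented by 1 library, so a difference between any pair of libraries had no replicate check, and the spread between hairpins may hold technical as well as biological variation. The sh-NC cells had the same infection and selection as the knockdown cells, and UM-UC-3 and 5637 were grown in different media, so line and medium cannot be told apart.

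Proliferating cells switch on their cycle genes in waves. At the end of G1, cyclin E and its kinase inactivate the retinoblastoma protein, which frees E2F factors to activate genes that license replication origins and make nucleotides. Later, the MuvB core with B-MYB and FOXM1 activates genes for mitotic entry, the spindle, kinetochores and cytokinesis, and the DREAM complex represses both waves in resting cells. In bulk RNA, fewer cells in a given phase and less RNA per cell cannot be told apart.

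Levels are given as FPKM, fragment counts scaled by transcript length and library size, which can be set side by side between genes of different length. Library depth, recovered from the steps between low values of single-exon genes, lay between 19365000 and 24697000 fragments. The least covered gene of the list in any library, CCNE2 in UM-UC-3 sh-LNMAT1#2, rested on at least 15.1 fragments, a counting error of 25.8% that covers counting only. LINC01296 had 14.2 FPKM in the UM-UC-3 control against 6.20 and 6.70 with hairpins 1 and 2, and 11.7 FPKM in the 5637 sh-NC library against 4.70 and 2.14. All 4 knockdown libraries were therefore below the control library of the same label. The sh-NC library of 5637 stood apart from its label in another respect: the summed level of 6 epithelial markers (CDH1, EPCAM, KRT5, KRT7, KRT17 and KRT19) was 0.736 FPKM there, 0.908 to 1.11 FPKM in the UM-UC-3 libraries, and 652 and 926 FPKM in the 5637 knockdown libraries. It is called the library labelled 5637 sh-NC throughout, and each result that rests on it is given with that limit. Fibroblast markers summed to at most 8.33 FPKM, endothelial markers to at most 0.284 FPKM, and of 4 immune markers only CD68 reached 1 FPKM (13.0 to 31.0 FPKM in the UM-UC-3 libraries and the library labelled 5637 sh-NC, 0.749 and 0.826 FPKM in the 5637 knockdown libraries), while PTPRC was at 0 in 5 libraries and at 0.0108 FPKM in the other.

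All 42 genes were expressed at 1 FPKM or more in every library. CCNE2, the second E-type cyclin, was the lowest in 5 of the libraries, with 1.05 FPKM in UM-UC-3 sh-LNMAT1#2 as its smallest value. The highest were PCNA, the sliding clamp of the replication fork, which led in 4 of 6 libraries at 126 to 174 FPKM, TPX2, a spindle assembly factor, at 137 FPKM with sh-LNMAT1#2 in UM-UC-3, and TOP2A, the topoisomerase that untangles sister chromatids, at 208 FPKM in 5637 sh-LNMAT1#1. The 26 G2/M genes had a median of 25.1 FPKM in the UM-UC-3 control, 7.81 with sh-LNMAT1#1 and 19.0 with sh-LNMAT1#2, against 9.62 in the library labelled 5637 sh-NC and 21.7 and 20.7 in the 5637 knockdown libraries. The median of the 16 G1/S genes moved over a narrower range, from 11.4 FPKM in the library labelled 5637 sh-NC to 25.1 FPKM in 5637 sh-LNMAT1#1. Among all 6 libraries, UM-UC-3 sh-LNMAT1#1 was the lowest for 22 of the 26 G2/M genes and for 0 of the 16 G1/S genes, and the library labelled 5637 sh-NC was the lowest for 12 of the 16 G1/S genes.

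**Figure D1:**
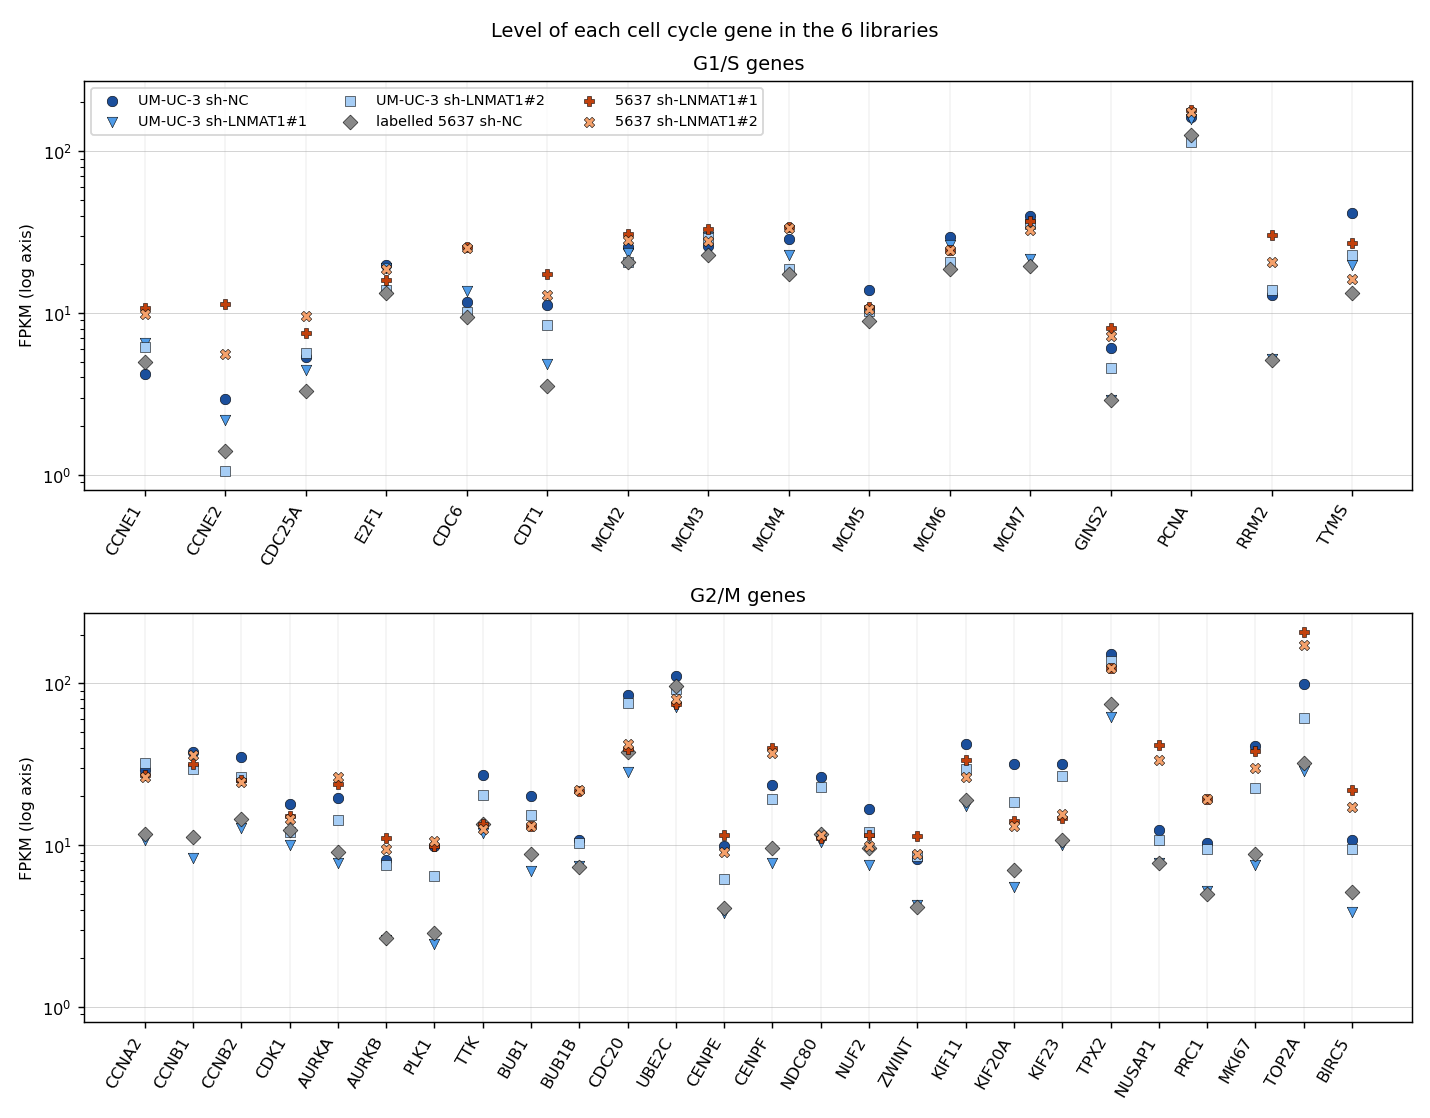
Level of each of the 42 genes in the 6 libraries, in FPKM on a log axis, with G1/S genes above and G2/M genes below; each symbol is 1 library. UM-UC-3 sh-LNMAT1#1 and the library labelled 5637 sh-NC lie at the bottom for nearly all G2/M genes, as for PLK1 at 2.45 and 2.89 FPKM.

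The G1/S and G2/M genes also differed in their promoters, which were read from RefSeq on GRCh38.p14 as 300-base windows reaching from 250 bases before the start of each gene to 50 bases after it. Windows were matched for 34 of the 42 genes, with CCNE2, MCM4, MCM5, AURKA, TTK, UBE2C, TPX2 and BIRC5 not matched. Both strands were searched for the words TTTCCCGC, TTTGGCGC, TTTCGCGC and TTTGCCGC, forms of the E2F site, for TTTGAA, the core of the cell cycle homology region recognised by MuvB complexes, and for CCAAT, the NF-Y box. An E2F word was present in 11 of 13 G1/S windows and 2 of 21 G2/M windows (CDK1 and NUSAP1), and in 3.33% of all 27305 promoters of that length. TTTGAA was present in 15 of 21 G2/M windows, in 0 of 13 G1/S windows, and in 15.4% of all promoters. CCAAT was common to both classes, with 17 of 21 G2/M windows, 9 of 13 G1/S windows and 35.7% of all promoters. A match of letters is a description of the window and shows neither a bound site nor a cause of any change below.

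The windows of MKI67, PLK1 and TOP2A are shown because these were the 3 genes holding TTTGAA with the largest differences in UM-UC-3 sh-LNMAT1#1. Each is printed 5′ to 3′ on the strand of its gene, with TTTGAA and CCAAT on either strand in capitals. They lie at chr10:128126374-128126673 (minus strand, MKI67), chr16:23678639-23678938 (plus strand, PLK1) and chr17:40417847-40418146 (minus strand, TOP2A). In MKI67 a TTTGAA shares bases with a CCAAT on the opposite strand.
MKI67: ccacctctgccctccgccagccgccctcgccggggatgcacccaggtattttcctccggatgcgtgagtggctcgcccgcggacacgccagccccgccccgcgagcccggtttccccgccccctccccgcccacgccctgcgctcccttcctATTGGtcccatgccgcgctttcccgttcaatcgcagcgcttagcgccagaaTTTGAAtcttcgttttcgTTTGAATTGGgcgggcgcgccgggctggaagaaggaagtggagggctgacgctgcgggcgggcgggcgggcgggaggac
PLK1: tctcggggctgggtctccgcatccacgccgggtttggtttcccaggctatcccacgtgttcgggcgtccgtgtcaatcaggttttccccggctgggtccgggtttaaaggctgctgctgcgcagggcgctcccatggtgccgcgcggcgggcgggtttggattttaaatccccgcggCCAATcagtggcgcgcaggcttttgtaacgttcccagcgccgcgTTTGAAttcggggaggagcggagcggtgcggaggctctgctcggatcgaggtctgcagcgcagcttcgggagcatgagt
TOP2A: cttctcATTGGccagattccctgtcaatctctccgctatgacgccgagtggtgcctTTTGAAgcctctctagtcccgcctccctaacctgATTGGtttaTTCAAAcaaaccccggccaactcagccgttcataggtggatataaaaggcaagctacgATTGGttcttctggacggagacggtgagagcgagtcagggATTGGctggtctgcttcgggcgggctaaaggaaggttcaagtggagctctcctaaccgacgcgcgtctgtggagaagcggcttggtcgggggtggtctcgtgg
The windows of PCNA and E2F1 are shown in contrast, since these were the G1/S genes holding an E2F word with the smallest differences in the same comparison. They lie at chr20:5126573-5126872 and chr20:33686336-33686635, both on the minus strand, and only the E2F words are in capitals.
PCNA: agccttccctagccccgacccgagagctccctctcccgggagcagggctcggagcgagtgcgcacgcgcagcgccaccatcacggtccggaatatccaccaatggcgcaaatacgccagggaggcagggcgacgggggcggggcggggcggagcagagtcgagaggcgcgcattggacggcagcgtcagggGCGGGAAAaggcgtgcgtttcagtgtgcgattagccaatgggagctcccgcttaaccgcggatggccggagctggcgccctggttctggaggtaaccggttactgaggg
E2F1: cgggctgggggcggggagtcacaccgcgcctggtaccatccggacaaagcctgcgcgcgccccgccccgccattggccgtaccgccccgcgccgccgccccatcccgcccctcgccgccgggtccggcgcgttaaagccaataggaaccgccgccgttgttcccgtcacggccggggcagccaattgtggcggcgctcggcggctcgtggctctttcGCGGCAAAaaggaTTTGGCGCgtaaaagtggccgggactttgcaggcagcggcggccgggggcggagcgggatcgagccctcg
MKI67, PLK1 and TOP2A hold TTTGAA 2, 1 and 2 times, while PCNA and E2F1 hold it 0 times and hold E2F words 1 and 2 times. These genes were picked among those holding the word in question, so its presence in them is not a result. KIF20A (log2 -2.42) and CCNB1 (-2.11) were passed over because their windows lack TTTGAA.

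Knockdown with sh-LNMAT1#1 in UM-UC-3 came with lower levels of the mitotic genes and, to a smaller extent, of part of the replication genes. Folds here and below are ratios of FPKM + 0.5, which understate the change of low genes, and were computed where the 3 libraries of the line averaged 1 FPKM or more. Of the 42 genes, 39 were lower than in UM-UC-3 sh-NC and 23 were at least 2-fold lower, against 5.31% of all 12025 genes. None was at least 2-fold higher, against 5.55% of all genes. The median log2 difference was -1.11 over the 42 genes and -0.00 over all genes. Most of these were of the G2/M class: all 26 G2/M genes were lower, 20 of them at least 2-fold, with a median of -1.34 and a range from -2.42 to -0.51, whereas 3 of the 16 G1/S genes were at least 2-fold lower and their median was -0.29. At a limit of 1.5-fold, 5 of the 16 G1/S genes were lower, against 1817 of all 12025 genes. With sh-LNMAT1#2, 36 of the 42 genes were lower than in UM-UC-3 sh-NC, against 5788 of all 12025 genes. Of the list, 1 gene was at least 2-fold lower (1.41% of all genes) and none was at least 2-fold higher (2.1%). The median was -0.35, against 0.02 over all genes. No gene of the list was at least 2-fold lower with both hairpins, against 0.358% of all genes, so this count does not set the list apart. Both comparisons share the UM-UC-3 sh-NC library, so their directions are not independent.

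**Figure D2:**
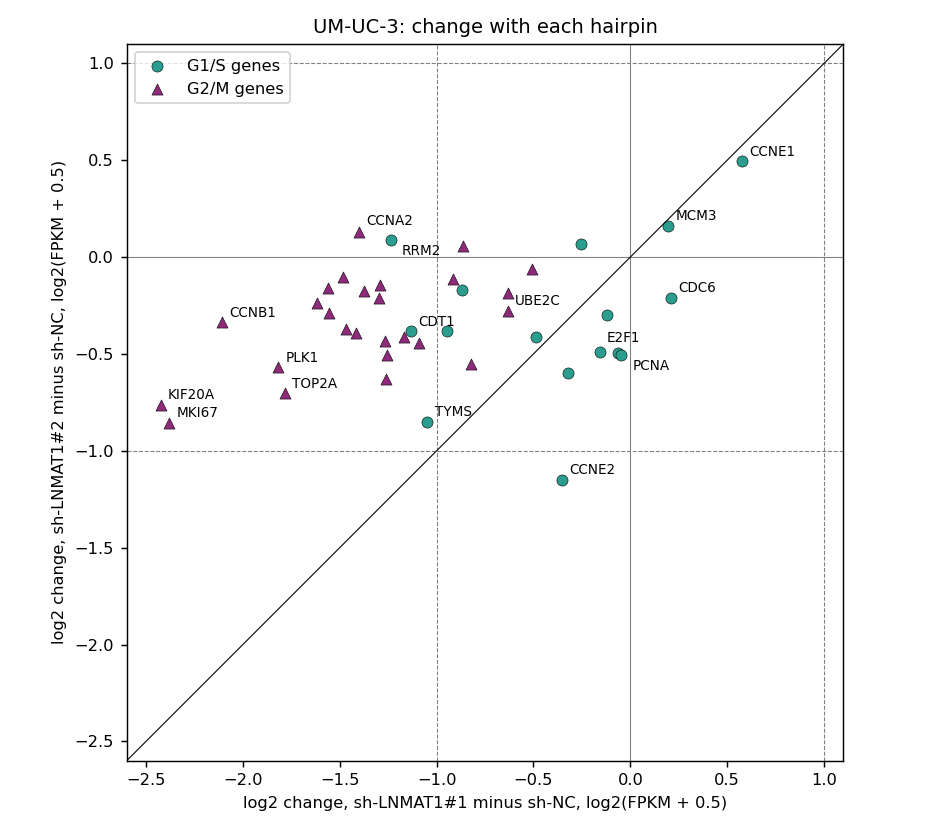
Log2 difference from UM-UC-3 sh-NC with sh-LNMAT1#1 (horizontal) and sh-LNMAT1#2 (vertical) for each of the 42 genes, on the log2(FPKM + 0.5) scale; dashed lines mark 2-fold and the diagonal marks equal differences, and both axes share 1 control library. All 26 G2/M genes lie left of the diagonal, 15 of them by 2-fold or more, with MKI67 at -2.38 and -0.85. CCNE2 is the only gene beyond 2-fold with hairpin 2.

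Among the cyclins, CDK1 and their regulators, the mitotic cyclins were lower with hairpin 1 and CCNE1 was not. CCNB1, the cyclin that drives entry into mitosis with CDK1, was at 37.4 FPKM in UM-UC-3 sh-NC, 8.29 with hairpin 1 and 29.5 with hairpin 2, 4.31-fold and 1.26-fold lower than the control. CCNA2, the cyclin of S phase and G2, was at 29.3, 10.8 and 32.1 FPKM in the same order, so that hairpin 1 was 2.64-fold below the control and hairpin 2 was slightly above it. CCNB2, the other B-type cyclin, was at 34.9, 12.7 and 26.5 FPKM. CDK1, the kinase of mitotic entry, was at 18.0, 9.99 and 12.1 FPKM. In all 4 of these genes hairpin 1 gave the lowest UM-UC-3 library. CCNE1, which opens S phase with CDK2, was instead lowest in the control, at 4.23 FPKM against 6.54 and 6.16, a difference of 1.49-fold and 1.41-fold. CCNE2 went from 2.94 FPKM in the control to 2.19 and 1.05 FPKM, and its 2.22-fold difference with hairpin 2 rested on the fewest fragments of the list. CDC25A, the phosphatase that activates CDK2, was at 5.35, 4.41 and 5.64 FPKM, and E2F1, the activator of the G1/S wave, at 19.8, 18.9 and 13.9 FPKM. Neither reached 1.5-fold in either comparison.

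The 10 origin licensing and replication fork genes had a median log2 difference of -0.24 with hairpin 1, and CDT1, GINS2 and MCM7 were 2.19-fold, 1.93-fold and 1.82-fold lower. PCNA was at 163 FPKM in UM-UC-3 sh-NC, 158 with hairpin 1 and 115 with hairpin 2. CDC6, which loads the replicative helicase onto origins, was at 11.8, 13.7 and 10.1 FPKM. The helicase subunits MCM2 to MCM7 differed from the control by log2 values between -0.87 (MCM7) and 0.20 (MCM3) with hairpin 1, and between -0.60 (MCM4) and 0.16 (MCM3) with hairpin 2. All 6 subunits were thus less than 2-fold from the control. GINS2, a subunit of the active helicase, was at 6.06, 2.90 and 4.54 FPKM. Of these 10 genes, CDT1, the partner of CDC6 in licensing, was the one at least 2-fold lower with hairpin 1, at 11.1 FPKM in the control, 4.82 with hairpin 1 and 8.43 with hairpin 2. Both enzymes of deoxynucleotide synthesis were at least 2-fold lower with hairpin 1. RRM2, the small subunit of ribonucleotide reductase, was at 13.0, 5.22 and 13.8 FPKM, so hairpin 2 was slightly above the control. TYMS, thymidylate synthase, was at 41.7, 19.9 and 22.9 FPKM and was lower with both hairpins, by 2.07-fold and 1.80-fold. TYMS and CCNE2 share 39.1% and 37.0% of their exon bases with genes on the opposite strand (ENOSF1 and INTS8), and whether counting used strand is not given in the sources used here. In all, 8 of the 42 genes share exon bases with another expressed gene, 7 of them across strands.

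The mitotic kinases and their checkpoint partners differed more. PLK1, the polo-like kinase of spindle assembly and mitotic exit, was at 9.87 FPKM in UM-UC-3 sh-NC, 2.45 with hairpin 1 and 6.49 with hairpin 2, 3.52-fold and 1.48-fold lower. AURKB, the kinase of the chromosomal passenger complex, was at 8.12, 2.58 and 7.54 FPKM. AURKA, the centrosomal Aurora kinase, was at 19.5, 7.81 and 14.3 FPKM. For each of these kinases hairpin 1 was more than 2-fold below the control, and hairpin 2 lay between them. The spindle checkpoint kinases TTK (27.2, 11.8 and 20.3 FPKM) and BUB1 (20.0, 6.93 and 15.4 FPKM) followed the same order. BUB1B, the BubR1 checkpoint protein, had the smallest difference of the 26 G2/M genes with hairpin 1, at 10.7, 7.39 and 10.2 FPKM. CDC20, which activates the anaphase-promoting complex, was at 84.1, 28.1 and 75.2 FPKM, while UBE2C, the ubiquitin-conjugating enzyme of that complex, was at 111, 71.6 and 91.8 FPKM. The pair thus differed by 2.95-fold and 1.55-fold with hairpin 1.

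Kinetochore and spindle genes were lower as groups with hairpin 1, 4 of 5 and 4 of 6 of them at least 2-fold. CENPF, a large kinetochore protein of late G2, was at 23.7, 7.72 and 19.3 FPKM in the control and with hairpins 1 and 2. CENPE, a kinetochore motor, was at 9.88, 3.84 and 6.22 FPKM. NDC80, which binds microtubules at the kinetochore, was at 26.5, 10.5 and 22.8 FPKM. Its partner NUF2 kept the same order, with 16.7, 7.56 and 12.1 FPKM, so that hairpin 1 was the lowest library for both and the control the highest. ZWINT, which links the NDC80 network to the checkpoint, was 1.82-fold lower with hairpin 1 (8.20, 4.29 and 8.56 FPKM). KIF20A, the kinesin that carries passenger proteins to the midzone, had the largest difference of the list, at 31.9 FPKM in the control, 5.54 with hairpin 1 and 18.6 with hairpin 2, 5.36-fold and 1.70-fold lower. The other kinesins were closer to the control with hairpin 2 than with hairpin 1 as well. KIF23, the centralspindlin motor, was at 31.8, 10.01 and 26.9 FPKM. KIF11, the motor that separates spindle poles, was at 42.1, 17.4 and 29.6 FPKM. TPX2, the activator of Aurora A on the spindle, was at 152, 61.7 and 137 FPKM. NUSAP1 and PRC1, microtubule bundlers of the spindle and midzone, were below 2-fold, at 12.3, 7.81 and 10.8 FPKM and at 10.3, 5.23 and 9.51 FPKM.

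MKI67 and TOP2A, both widely used as proliferation markers, were among the genes furthest below the control with hairpin 1, whereas PCNA, another such marker, had the smallest difference of the list (log2 -0.05). MKI67, the Ki-67 antigen that coats mitotic chromosomes (ENSG00000148773, hg38 chr10:128096659-128126385), was at 41.1 FPKM in UM-UC-3 sh-NC, 7.49 with hairpin 1 and 22.5 with hairpin 2, 5.21-fold and 1.81-fold lower. TOP2A (ENSG00000131747, chr17:40388516-40417950) was at 99.6, 28.6 and 61.1 FPKM, 3.44-fold and 1.63-fold lower. BIRC5, the passenger protein survivin, was at 10.7, 3.84 and 9.46 FPKM. For 24 of the 26 G2/M genes both hairpins were below the control. Hairpin 1 was below hairpin 2 for 26 of 26, against 6346 of all 12025 genes. Against hairpin 1, the hairpin 2 library was at least 2-fold higher for 15 of the 26 G2/M genes and 16 of the 42 genes (4.23% of all genes) and at least 2-fold lower for 0 of them (4.56%), with a G2/M median of 1.08 and a G1/S median of -0.06. LINC01296 itself was at 6.20 and 6.70 FPKM in these libraries. Within the G2/M genes, the presence of TTTGAA did not go with the size of the hairpin 1 difference: the median was -1.30 for the 15 genes whose window held it and -1.47 for the 6 whose window did not (CCNA2, CCNB1, AURKB, BUB1, CENPE and KIF20A).

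**Figure D3:**
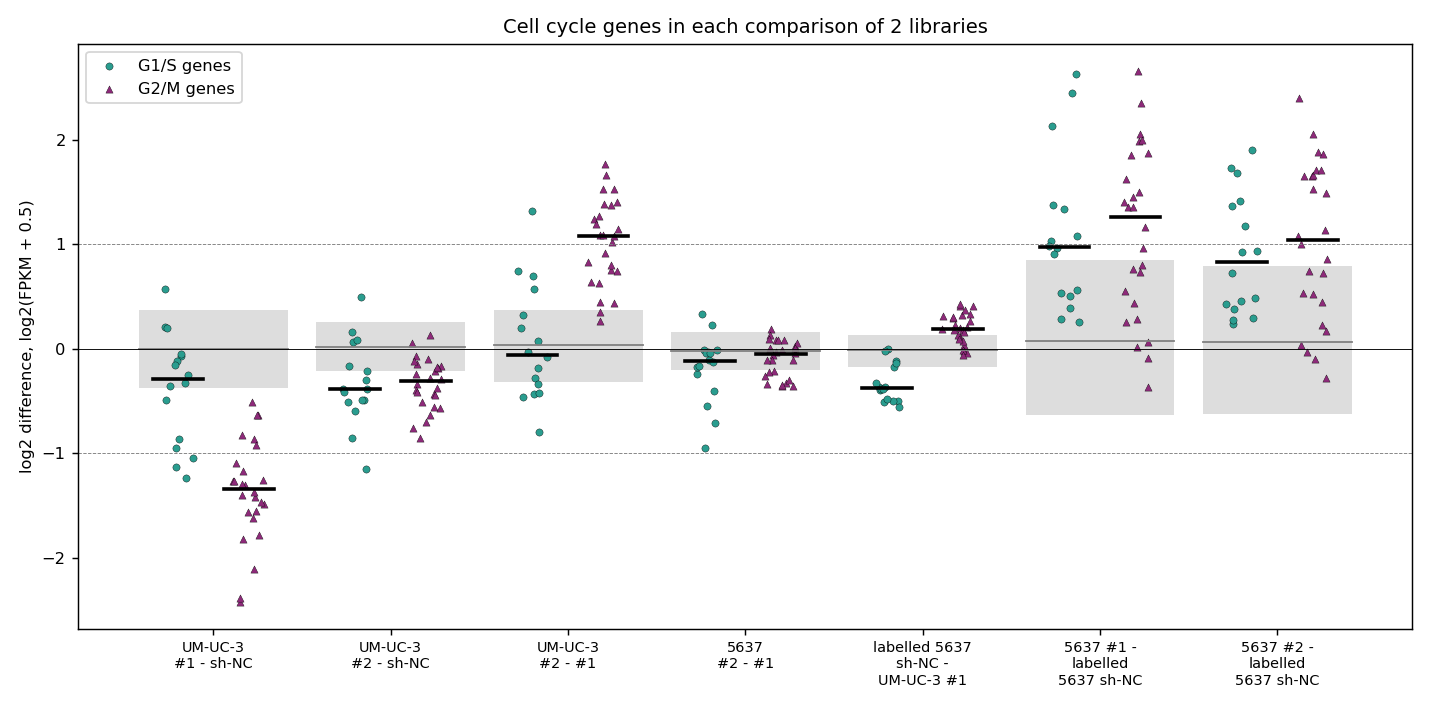
Log2 difference of each gene, log2(FPKM + 0.5), in 7 comparisons of 1 library with 1 library (circles G1/S genes, triangles G2/M genes, black bars their medians); grey boxes span the middle 50% of all genes kept and grey lines their median. In UM-UC-3 sh-LNMAT1#1 the G2/M median of -1.34 lies below the box, and in 5637 hairpin 2 against hairpin 1 both medians lie inside it.

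In 5637 the knockdown libraries were compared with the library labelled 5637 sh-NC, whose epithelial markers do not match its label. Relative to it, 21 of the 42 genes were at least 2-fold higher with sh-LNMAT1#1, against 21.5% of all 12791 genes, and 20 were so with sh-LNMAT1#2, against 20.2%. No gene of the list was at least 2-fold lower, against 15.3% and 15% of all genes. The medians were 1.01 and 0.93, against 0.07 and 0.06 over all genes. 20 of the 42 genes were at least 2-fold higher with both hairpins, against 18.5% of all genes. With both hairpins TOP2A had the largest difference, with 208 and 173 FPKM in the knockdown libraries and 32.4 FPKM in the control so labelled. CCNE2 came next with hairpin 1 but not with hairpin 2, at 11.3 and 5.62 FPKM against 1.40 FPKM. NUSAP1 had 41.5 and 33.6 FPKM against 7.73, RRM2 30.4 and 20.6 FPKM against 5.15 and MKI67 38.3 and 30.1 FPKM against 8.87. The degradation genes were not among them: UBE2C was at 74.7 and 79.5 FPKM against 96.4 and CDC20 at 39.4 and 42.2 FPKM against 37.5. Every one of these values depends on a control whose label is in doubt, and without it no comparison with a control library remains in 5637.

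The 5637 knockdown libraries themselves lay close together, in the list and over all genes. Between hairpin 2 and hairpin 1, 0 of the 42 genes passed 2-fold in either direction. Over all genes 1.15% were at least 2-fold higher and 0.86% lower, so the count of 0 does not set the list apart. The median was -0.08, against -0.02 over all genes. The widest gaps were in CCNE2 (log2 difference -0.95) and TYMS, from 27.0 to 16.3 FPKM. LINC01296 differed in the same pair, at 4.70 and 2.14 FPKM.

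The library labelled 5637 sh-NC was nearest in these genes to UM-UC-3 sh-LNMAT1#1. Against that library, 0 of the 42 genes passed 2-fold or 1.5-fold (0.507% of all genes were at least 2-fold higher and 0.665% lower), with a median of 0.05 and a range from -0.56 to 0.43. The classes lay on opposite sides within that range: 16 of 16 G1/S genes were lower (median -0.37) and 22 of 26 G2/M genes higher (median 0.19), while the middle 50% of all genes ran from -0.17 to 0.14. Against UM-UC-3 sh-NC, 22 of the 42 genes were at least 2-fold lower (5.65% of all genes) and 0 higher (5.1%), and against UM-UC-3 sh-LNMAT1#2, 9 were lower (4.45%) and 0 higher (4.13%). MKI67 was at 8.87 FPKM, against 7.49 FPKM in UM-UC-3 sh-LNMAT1#1, TOP2A at 32.4 and 28.6, CCNB1 at 11.2 and 8.29 and PLK1 at 2.89 and 2.45. LINC01296 was at 11.7 and 6.20 FPKM in the same pair. The origin of this library was not tested.

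When both lines were fitted together, with line as a covariate, no gene of the list was called different between the 4 knockdown and the 2 control libraries by limma at an adjusted p of 0.05, nor was any of the 12717 genes tested (0% higher, 0% lower). At an unadjusted p under 0.05 there were 811 genes, of which 1 was in the list, CCNE1 (log2 difference 0.76, SE 0.22, limma adjusted p = 0.569). It was higher with knockdown in all 4 comparisons, at 6.54 and 6.16 FPKM against 4.23 in UM-UC-3 and 10.7 and 9.92 against 4.97 for the 5637 labels. The median log2 difference of the 42 genes was 0.16 over the 6 libraries, against -0.02 over all genes. Without the library labelled 5637 sh-NC it was -0.73, and all 26 G2/M genes were lower with knockdown, against 6380 of all 12748 genes. No 5637 control then remained, and the line covariate took up both 5637 libraries. That value therefore repeats the UM-UC-3 differences from 1 control given above and is not a result of both lines. Without UM-UC-3 sh-NC the median of the list was 0.97, against -0.01 over all genes. The UM-UC-3 knockdown libraries then had no control. That contrast set only the 5637 knockdown libraries against the library labelled 5637 sh-NC. The pooled result therefore turned on which control library was kept.

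A comparison that leaves both control libraries out is that of the lines, with both hairpins as the 2 libraries of each line. Fitted by limma across 12844 genes, 14 of the 42 genes were called higher in 5637, against 20.1% of all genes, and 0 were called lower, against 18.4%. Their median log2 difference, 5637 minus UM-UC-3, was 0.58, against -0.02 over all genes. Taken hairpin by hairpin, the median was 0.94 with hairpin 1 and 0.36 with hairpin 2, and 1.30 and 0.15 over the G2/M genes. At least 2-fold higher in 5637 were 19 genes of the list with hairpin 1 (19.5% of all genes) and 5 with hairpin 2 (16.8%). 25 of the 42 genes had both 5637 libraries above both UM-UC-3 libraries (35.9% of all genes) and 0 had both below (36.7%), and 20 were above all 3 UM-UC-3 libraries, control included (32.2%). 6 of the called genes were of the G1/S class and 8 of the G2/M class. The median of the 42 genes was 0.49 without 5637 sh-LNMAT1#1 and 0.55 without 5637 sh-LNMAT1#2. It was 0.36 without UM-UC-3 sh-LNMAT1#1 and 0.91 without UM-UC-3 sh-LNMAT1#2. Over all genes these medians were -0.06, -0.04, 0.00 and 0.05 in the same order. Each of these fits left a single library in a line, so no count of called genes is given. A fit against all 3 UM-UC-3 libraries called 9 higher. That was 21.4% of the list, against 21.3% of all 12748 genes.

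**Figure D4:**
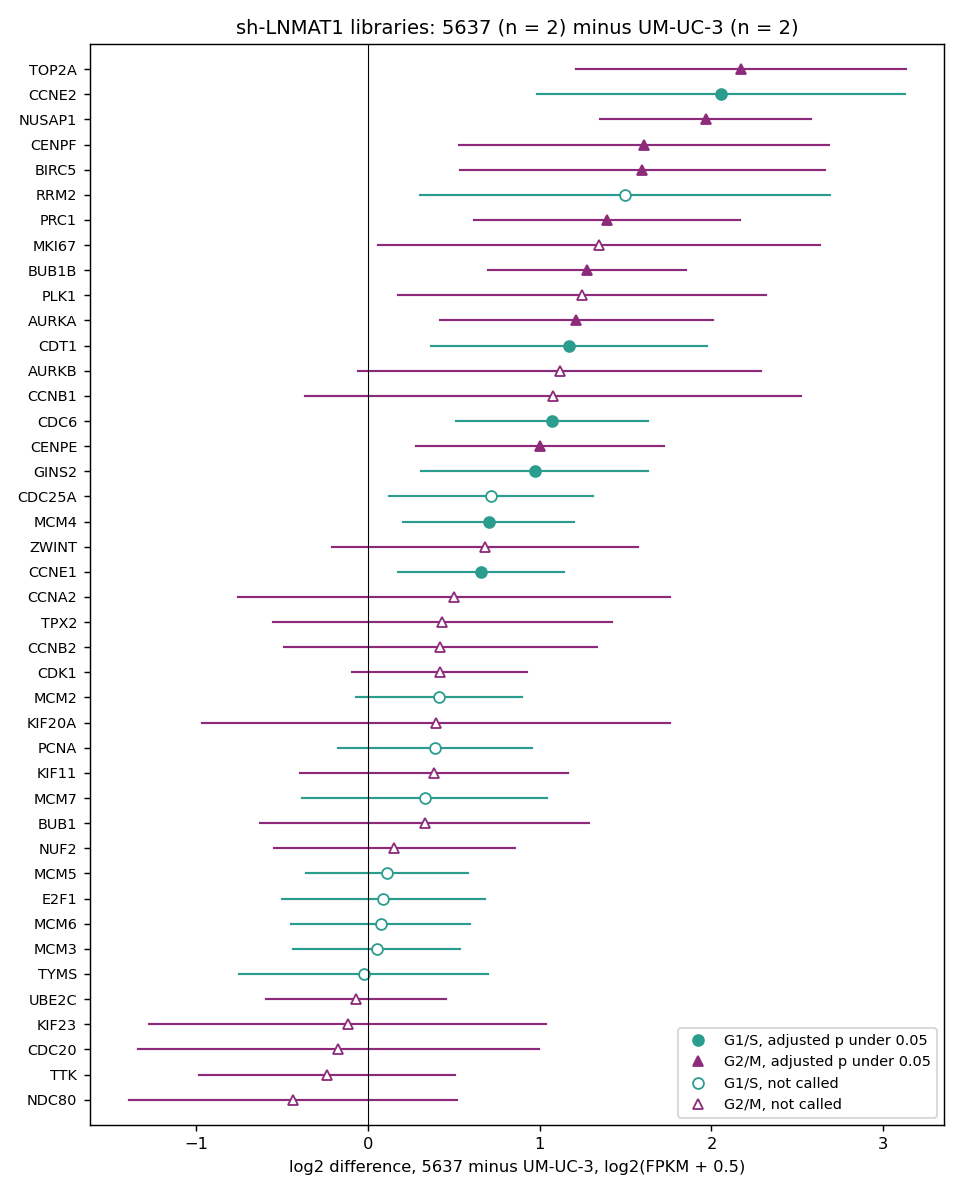
Log2 difference, 5637 minus UM-UC-3, for each of the 42 genes among the 4 sh-LNMAT1 libraries (2 per line), with 95% intervals from limma; filled symbols had an adjusted p under 0.05. TOP2A (2.17), CCNE2 (2.06) and NUSAP1 (1.97) lie furthest right and NDC80 (-0.44) furthest left.

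The called genes spanned roles. TOP2A had 208 and 173 FPKM in the 5637 libraries against 28.6 and 61.1 in the UM-UC-3 libraries, a 4.50-fold difference (log2 2.17, SE 0.38, limma adjusted p = 0.00976). CCNE2 had 11.3 and 5.62 FPKM against 2.19 and 1.05 (log2 2.06, SE 0.43, limma adjusted p = 0.0162). NUSAP1 (ENSG00000137804, chr15:41332694-41381050) had 41.5 and 33.6 FPKM against 7.81 and 10.8, with the lowest adjusted p of the list (log2 1.97, SE 0.24, limma adjusted p = 0.00301). In these 3 genes both 5637 libraries were above every UM-UC-3 library, sh-NC included. CENPF (log2 1.61), BIRC5 (1.60), PRC1 (1.39), BUB1B (1.27), AURKA (1.21) and CENPE (1.00) were the other called mitotic genes. Of these, CENPE overlapped with the UM-UC-3 control, at 11.6 and 9.14 FPKM in 5637 against 9.88 FPKM. CDT1 (1.17), CDC6 (1.07), GINS2 (0.97), MCM4 (0.70) and CCNE1 (0.66) were the other called replication and G1/S genes. CDC6 was at 25.4 and 25.2 FPKM in 5637 and between 10.1 and 13.7 FPKM in UM-UC-3, and BUB1B at 21.6 and 22.0 FPKM against 7.39 to 10.7 FPKM.

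Several well-known markers did not pass the test at differences of the same size as those of called genes. MKI67 was at 38.3 and 30.1 FPKM in 5637 against 7.49 and 22.5 in UM-UC-3 (log2 1.35, 95% interval 0.06 to 2.63, limma adjusted p = 0.0907), and the UM-UC-3 control, at 41.1 FPKM, was above both 5637 libraries. PLK1 (log2 1.25, limma adjusted p = 0.0694), RRM2 (1.498, limma adjusted p = 0.0564) and CDC25A (0.72, limma adjusted p = 0.0627) also missed the threshold. 6 genes had a difference below 0, none of them called: NDC80 (-0.44), TTK (-0.24), CDC20 (-0.17), KIF23 (-0.12), UBE2C (-0.07) and TYMS (-0.02). Each of these 6 was above 0 when UM-UC-3 sh-LNMAT1#2 was left out. NDC80 was at 11.1 and 11.5 FPKM in 5637 and 10.5 and 22.8 FPKM in the UM-UC-3 knockdown libraries, so that the 5637 values fell between them. Among the helicase subunits, MCM3, MCM5 and MCM6 differed by 0.05, 0.11 and 0.07, with 95% intervals that reached from -0.45 at the lowest to 0.59 at the highest.

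Among 111 further genes of the cycle, 20 were called higher in 5637, against 20.1% of all genes, and 10 lower, against 18.4%, so the counts themselves did not set these genes above all genes. RB1, which encodes the retinoblastoma protein, was at 31.7, 23.7 and 24.6 FPKM in UM-UC-3, at 22.2 FPKM under the label 5637 sh-NC, and at 0.893 and 0.804 FPKM in the 5637 knockdown libraries (log2 -4.19, SE 0.19, limma adjusted p = 0.000197). CDKN2A, which encodes the CDK4 and CDK6 inhibitor p16, was at most 0.0102 FPKM in the UM-UC-3 libraries and the library labelled 5637 sh-NC and at 22.8 and 34.8 FPKM in the 5637 knockdown libraries. CDKN2B, its neighbour and the gene of p15, was listed at 0 in the UM-UC-3 libraries, was at 0.00763 FPKM under the label 5637 sh-NC and at 2.28 and 2.84 FPKM in 5637. E2F3, an activating E2F, was at 8.19, 6.79 and 4.47 FPKM in UM-UC-3, 6.62 in the library labelled 5637 sh-NC, and 61.5 and 36.8 FPKM in 5637 (log2 2.998, SE 0.33, limma adjusted p = 0.00208). CCND1, the cyclin D1 gene, was lower in 5637 (14.7 and 32.1 FPKM against 98.7 and 77.5, log2 -1.98, limma adjusted p = 0.0143), and CCND2 was listed at 0 in both 5637 libraries against 12.8 to 22.2 FPKM in UM-UC-3. The library labelled 5637 sh-NC was near the UM-UC-3 libraries in both, at 96.5 FPKM for CCND1 and 22.5 FPKM for CCND2.

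CDKN1B, the gene of the inhibitor p27, was at 5.65 and 7.54 FPKM in the 5637 knockdown libraries against 16.6 and 14.7 in those of UM-UC-3 (log2 -1.20, limma adjusted p = 0.0122). CDKN1A, the p21 gene, overlapped between the lines at 21.2 and 31.7 FPKM against 43.5 and 25.9 (limma adjusted p = 0.423). CDK4, the partner of the D cyclins, was at 16.5 and 17.7 FPKM in 5637 and 23.2 and 27.3 FPKM in UM-UC-3 (limma adjusted p = 0.0799). MYBL2, the gene of B-MYB, was higher in 5637, at 139 and 91.8 FPKM against 18.7 and 55.6 (log2 1.79, limma adjusted p = 0.0484). FOXM1 did not separate the lines, at 11.5 and 9.57 FPKM against 3.43 and 13.5 (limma adjusted p = 0.488). The repressor E2F genes E2F7 and E2F8 differed by log2 values of 0.43 and 0.38 and E2F2 by -1.20, none called (E2F2 limma adjusted p = 0.0557). SPC25, a subunit of the NDC80 complex, stood out by contrast with NDC80 and NUF2, at 21.2 and 13.2 FPKM in 5637 against 1.51 and 3.71 (log2 2.57, limma adjusted p = 0.00820), and CCNF was at 7.88 and 6.72 FPKM against 0.751 and 1.90. BUB3, PTTG1 and RRM2B were lower in 5637, with log2 differences of -1.06, -1.06 and -1.47.

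**Figure D5:**
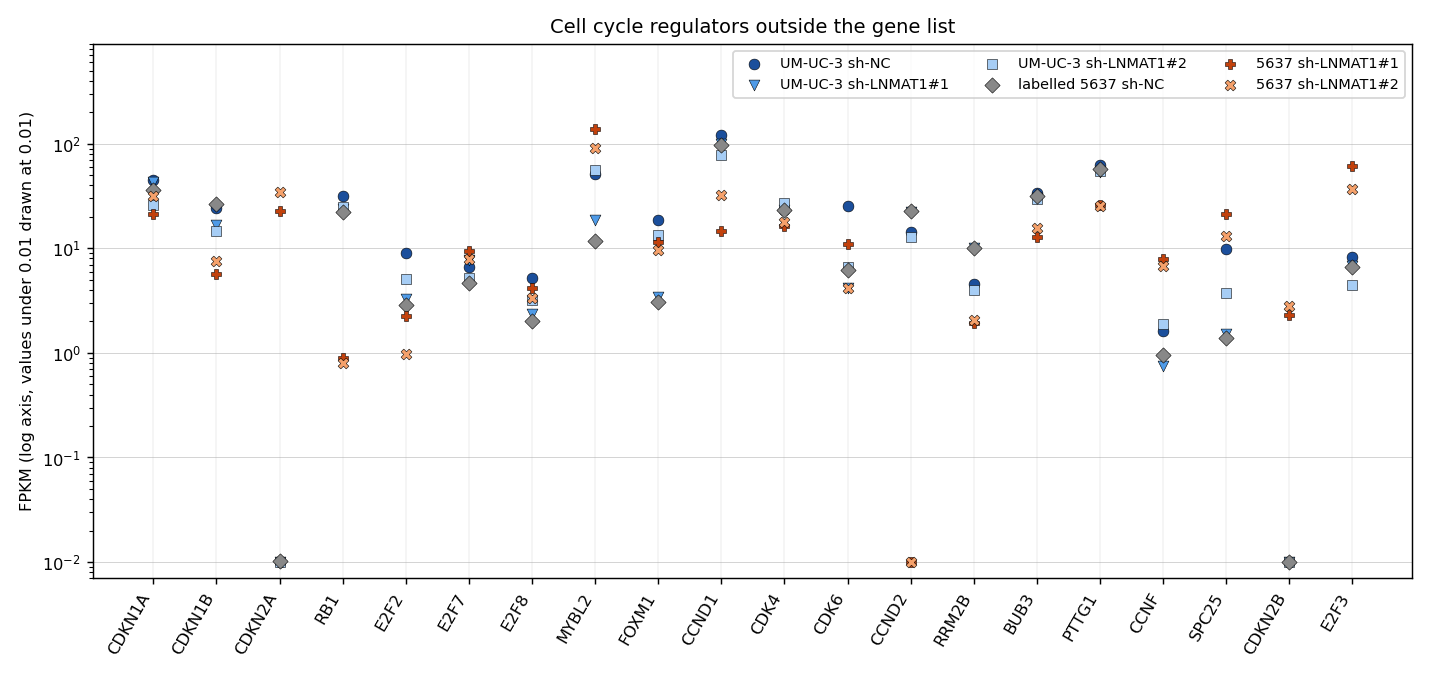
FPKM of 20 further cell cycle regulators in the 6 libraries, on a log axis with values under 0.01 drawn at 0.01; each symbol is 1 library. RB1 is at 0.893 and 0.804 FPKM in the 5637 knockdown libraries and at 22.2 FPKM or more in the other 4, and CDKN2A shows the opposite order.

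With sh-LNMAT1#1 in UM-UC-3 the further genes followed the list by class. They were read from the same libraries and chosen with earlier results of these data known, so they are no independent check. Of the 109 kept, 45 were at least 2-fold lower, against 5.31% of all genes, and 1 was higher, against 5.55% (RRM2B, the p53-inducible subunit of ribonucleotide reductase, at 4.59 FPKM in the control and 10.2 FPKM), with a median of -0.81. The spindle, condensin and cytokinesis genes had 16 of 19 at least 2-fold lower, checkpoint and mitotic entry 9 of 16, kinetochore and checkpoint proteins 8 of 15, and replication 5 of 26 with a median of -0.63. FOXM1, the factor of the mitotic wave, was at 18.6 FPKM in UM-UC-3 sh-NC, 3.43 with hairpin 1 and 13.5 with hairpin 2. MYBL2 was at 51.1, 18.7 and 55.6 FPKM. Both thus differed from the control at least 2-fold with hairpin 1 and less than 1.5-fold with hairpin 2. CDK6 was the gene furthest below the control with each hairpin, at 25.6, 4.20 and 6.64 FPKM, and with SPC25 and HJURP it made up the 3 genes at least 2-fold lower with hairpin 2. RB1, CDK4, CDKN1A and CDKN1B were less than 2-fold from the control with either hairpin.

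The difference between the lines in the response to knockdown was called by limma for 10 of the 42 genes as higher in 5637, against 9.99% of all 12717 genes, and for 0 as lower, against 8.79%. These were TOP2A, MKI67, CDT1, NUSAP1, PRC1, AURKA, CENPE, GINS2, BUB1B and MCM4. All 42 differences were above 0, with a median of 1.54. Over all genes, 6308 of 12717 were above 0 and the median was -0.01. This contrast takes the library labelled 5637 sh-NC as the control of 5637, so it cannot be computed without it. Each line had 1 control library, so the spread behind these p-values came from the hairpins alone, and variation between control cultures did not enter. With no filter on low genes, 0 of the 42 were called, against 4.52% of all genes called higher and 3.44% called lower.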

How the data were processed

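Poly(A) RNA of 6 libraries was sequenced after stranded library preparation, and per the paper's methods the cells were stable lentiviral lines. The RNA-seq methods of the paper, written for tissue samples, name removal of rRNA and do not mention strand. The authors deposited 1 table of FPKM values per gene. HISAT2 and genome build hg38 are named in the submitters' processing notes, and the counting program, annotation and use of strand are not given in the sources used here. 1 of 50869 rows held no values and was left out.

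The 42 genes and the further gene lists were chosen with earlier results of these data known. Values were analysed as log2(FPKM + 0.5) for genes averaging 1 FPKM or more in the compared libraries. With 1 library per group, 2-fold was the limit for a description. Fits across all genes used limma 3.58.1 in R 4.3.3 (trended empirical Bayes, Benjamini-Hochberg adjusted p under 0.05), and were tested on simulated data. Fits were the knockdown with line as covariate, 5637 minus UM-UC-3 among the 4 sh-LNMAT1 libraries, and the interaction. p-values measure only the spread between these libraries. Positions of 41 of the 42 genes equalled those of GENCODE 29, and exon overlaps were taken from it. All 42 genes were named by rule, with 12 fixed regulators and the 4 largest called line differences in each direction among 111 further genes. Alternatives were pseudocounts of 0.1 and 1, no filter, a filter of 5 FPKM, scaling to the 75th percentile, 1.5-fold, no trend, no covariate, the hairpin as block and each library left out. Comparisons of hairpin 2 with hairpin 1, and of the library labelled 5637 sh-NC with UM-UC-3 libraries, were chosen after seeing the data. Python 3.11.15, numpy 2.4.6, pandas 2.3.3 and matplotlib 3.10.9 were used.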

Additional observations from a re-analysis of the deposited data

Results flagged for a closer look

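10 of the 42 genes were picked out because the difference with knockdown in one line and that in the other passed limma's test of the interaction, at an adjusted p under 0.05. Each line had 1 control library, so this test measured the spread between hairpins only and says nothing of how control cultures vary. As the log2 difference with knockdown in 5637 minus that in UM-UC-3, the values were 3.78 for TOP2A, 3.50 for MKI67, 2.69 for CDT1, 2.61 for NUSAP1, 2.37 for PRC1, 2.27 for AURKA, 2.18 for CENPE, 1.92 for GINS2, 1.80 for BUB1B and 1.41 for MCM4. The limma adjusted p ran from 0.0155 for NUSAP1 to 0.0496 for MKI67. In TOP2A, both UM-UC-3 knockdown libraries (28.6 and 61.1 FPKM) were below their control at 99.6 FPKM, and both 5637 knockdown libraries (208 and 173 FPKM) were above the library labelled 5637 sh-NC at 32.4 FPKM. In all 10 genes the UM-UC-3 libraries were lower than their control and the 5637 libraries higher than the library labelled 5637 sh-NC, whose levels of these genes were within 1.5-fold of UM-UC-3 sh-LNMAT1#1 and whose epithelial markers summed to 0.736 FPKM. The part of that library in the result was not tested apart from its label, since the contrast has no other 5637 control.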

How the results depend on the processing

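With 1 library per line and hairpin, 189 of the 224 values recomputed for the main comparisons kept their direction and size class. These include counts of 0 that stayed at 0, as in the pooled knockdown fit, so the tally is no measure of robustness. For the values that moved, the cause was not tested. In the pooled knockdown fit, leaving out a library moved the genes called from 0 to 2114 higher and from 0 to 1911 lower, and the genes of the list from 0 to 16 higher, the upper values coming without UM-UC-3 sh-NC. In the comparison of lines, leaving out a library gave 754 to 3123 genes higher, 438 to 2450 lower, 0 to 24 of the list higher, 0 to 3 lower, and a median of 0.36 to 0.91 for the list. A filter of 5 FPKM, which tests fewer genes, gave 1125 higher and 1200 lower. No filter gave 3 of the list higher, or 7.14%, against 8.64% of all genes. All 3 UM-UC-3 libraries gave 9 higher, or 21.4%, against 21.3% of all genes. In both settings the share of the list was near that of all genes. All 6 libraries by labelled line gave 1 gene higher, 0 lower, 0 of the list and a median of 0.15. Scaling to the 75th percentile gave 12 of the list. With the hairpin number as replicate block the fit called 2721 genes higher and 2529 lower and 19 of the list higher. The hairpin number pairs no culture, and with 2 pairs no check of the pairing was made. The interaction gave 417 genes higher, 466 lower and 6 of the list with a filter of 5 FPKM, and 0 of the list with no filter.

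Among single genes, those with a difference below 0 between lines changed sign when 1 library was left out: TYMS ran from -0.38 to 0.33, TTK from -0.62 to 0.14, CDC20 from -0.88 to 0.53, UBE2C from -0.25 to 0.11, NDC80 from -0.98 to 0.11 and KIF23 from -0.81 to 0.57, the highest values without UM-UC-3 sh-LNMAT1#2 except for TYMS, where they were 0.07 without that library and 0.33 without 5637 sh-LNMAT1#2. For UM-UC-3 sh-LNMAT1#1, the median was -0.29 over G1/S genes alone. With both hairpins 0 genes of the list were at least 2-fold lower, against 0.358% of all genes. For sh-LNMAT1#2 the 1 gene at 2-fold became 0 with a pseudocount of 1 or a filter of 5 FPKM, which left CCNE2 out, and 7 at 1.5-fold. For 5637 against the library labelled 5637 sh-NC, medians were 0.94 and 0.87 with scaling to the 75th percentile, 1.26 and 1.04 over G2/M genes, and 0.83 over G1/S genes with hairpin 2.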
